A study of Homo sapiens with 12 samples.

Results

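The genes described here are 10 cytosolic heat shock genes, taken by symbol from the 58735 genes of an RNA sequencing table of 2 cell lines. They are HSPA1A, HSPA1B and HSPA8 of the HSP70 family, the partners DNAJB1, HSPH1 and BAG3, the HSP90 genes HSP90AA1 and HSP90AB1, the small heat shock protein HSPB1, and HSF1, the transcription factor of the heat shock response. All 10 were found, each in a single row, and all 10 passed the filter for testing in every comparison. The study asked which genes respond when cells from ovarian granulosa cell tumors (GCTs) are given 77-39, a small-molecule inhibitor of the mitochondrial deacetylase SIRT3. The libraries form 4 groups of 3: untreated KGN, KGN with 77-39, untreated COV434 and COV434 with 77-39. KGN cells came from a GCT of the adult type and COV434 cells from one of the juvenile type, as the study gives it, and both are labelled as wild type in genotype. Treated cells received 77-39 for 72 h at a dose written as 10 μm/ml, a unit that does not say whether a molar or a mass concentration was meant. The same text stands on the untreated libraries, which were taken as untreated from their titles. No solvent control was named.

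Heat shock proteins are chaperones that bind unfolded or unstable proteins. HSP70 proteins hold a client in a cycle of ATP hydrolysis, which J-domain proteins such as DNAJB1 start and nucleotide exchange factors such as HSPH1 and BAG3 complete, while HSP90 takes over kinases, hormone receptors and other clients at a later stage of folding. When unfolded proteins accumulate, HSF1 forms trimers and binds heat shock elements, arrays of the unit GAA and its complement TTC, in front of chaperone genes. HSPA1A and HSPA1B are the classical stress-inducible HSP70 genes, HSPA8 is the form made in nearly all cells, HSP90AA1 is the inducible and HSP90AB1 the constitutive cytosolic HSP90.

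The heat shock elements of these promoters are shown as a feature, outside the measured values, that most but not all of these genes held. RefSeq promoter windows on GRCh38.p14, from 250 bases before to 50 bases after an annotated start, were given for 9 of the 10 genes, in 14 windows, but not for HSF1. They were searched for 2 units that face each other or apart, GAANNTTC or TTCNNGAA, and for 3 units, GAANNTTCNNGAA or its reverse complement TTCNNGAANNTTC, where N is any base. Both strands were searched, and a match to 3 units also holds matches to 2. A window with 2 units was found for 7 of the 9 genes, against 16.2% of the 27305 genes with a window. All 3 units were found for HSPA8, HSP90AA1 and HSP90AB1, 3 of the 9, against 0.608% of all genes. The windows of HSPH1 and BAG3 held none of these letters. A match is a description of the letters and no evidence of binding. In the stretches of 30 bases below, read 5′ to 3′ along the gene, capitals mark the matched units. Not every match is shown. Left out are another match to 3 units in HSP90AB1, 165 bases before the start, and further matches to 2 units in HSP90AA1 and DNAJB1.
HSPA1A, chr6:31815426-31815455, plus strand: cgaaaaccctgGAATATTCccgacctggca
HSPA1B, chr6:31827622-31827651, plus strand: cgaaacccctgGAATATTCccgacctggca
HSPA8, chr11:123062171-123062200, minus strand: gcgggccccTTCTGGAAGGTTCtaagatag
HSPA8, chr11:123062346-123062375, minus strand: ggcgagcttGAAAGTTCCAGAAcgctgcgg
DNAJB1, chr19:14518456-14518485, minus strand: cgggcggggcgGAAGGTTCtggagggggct
HSP90AA1, chr14:102087112-102087141, minus strand: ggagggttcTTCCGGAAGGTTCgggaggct
HSP90AB1, chr6:44247822-44247851, plus strand: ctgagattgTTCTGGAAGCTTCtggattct
HSPB1, chr7:76302480-76302509, plus strand: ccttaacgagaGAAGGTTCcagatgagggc
The capitals begin 106 bases before the annotated start in HSPA1A and 105 before it in HSPA1B. In HSPA8 those shown begin 55 and 230 bases before the start, and in HSP90AA1, HSP90AB1, DNAJB1 and HSPB1 they begin 88, 112, 77 and 182 bases before it.

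Before the results, the line labels were set against marker genes. FOXL2, the transcription factor that defines granulosa cells, was at 0 or 1 read in each of the 6 libraries labelled KGN. In those labelled COV434 it stood at 12.4 ± 0.786 FPKM (SD, n = 3) without and 13.5 ± 0.403 FPKM with 77-39. FPKM is the number of fragments on a gene scaled to the length of the gene and to the size of the library. Of 10 granulosa markers, 2 reached a mean of 1 FPKM in untreated KGN and 4 in untreated COV434. FSHR had no read in any library. The keratins KRT8 and KRT18 were at a mean of 221 and 201 FPKM in untreated COV434 and at or below 0.029 FPKM in untreated KGN. The line names are therefore used here only as the labels of the libraries. Reads on genes, recovered from the FPKM, numbered 15547851 to 18280415 per library, and the 10 genes held 299 to 28113 reads each in any library. Mitochondrially encoded genes took 7.71% to 13.5% of the reads in COV434, highest in treated library 1. The labels do not say that replicates came from separate cultures, so p-values measure the spread between these libraries, which may be technical.

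A set of 4 genes of the HSP70 system, HSPA1A, HSPA1B, HSPA8 and DNAJB1, stood higher in every treated than in every untreated library labelled COV434, as did 6.23% of all genes. The ratio of the mean FPKM was 1.69 to 3.04. In limma, however, 0 of the 10 had an adjusted p under 0.05 there, where 0.0415% of all genes did. In the libraries labelled KGN, HSPA8, HSP90AA1 and HSPH1 rose, by 1.24 to 1.35 times, 3 of the 10 called where 34% of all genes were. In a direct test, the interaction of line and treatment in limma, the responses of the 4 genes of the HSP70 system were among the 3.6% of all genes called as different between the lines. Those of HSP90AA1 and HSPH1 were not called (adjusted p = 0.478 and 0.893). For HSPA8 and DNAJB1 the call was lost without any 1 of the KGN libraries, and for HSPA8 also with the replicate block (adjusted p = 0.0589). Of all genes, the fits without 1 KGN library called 67 to 104 with a higher response in KGN and 58 to 106 with a lower one. In the full data these were 243 and 229.

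**Figure D1:**
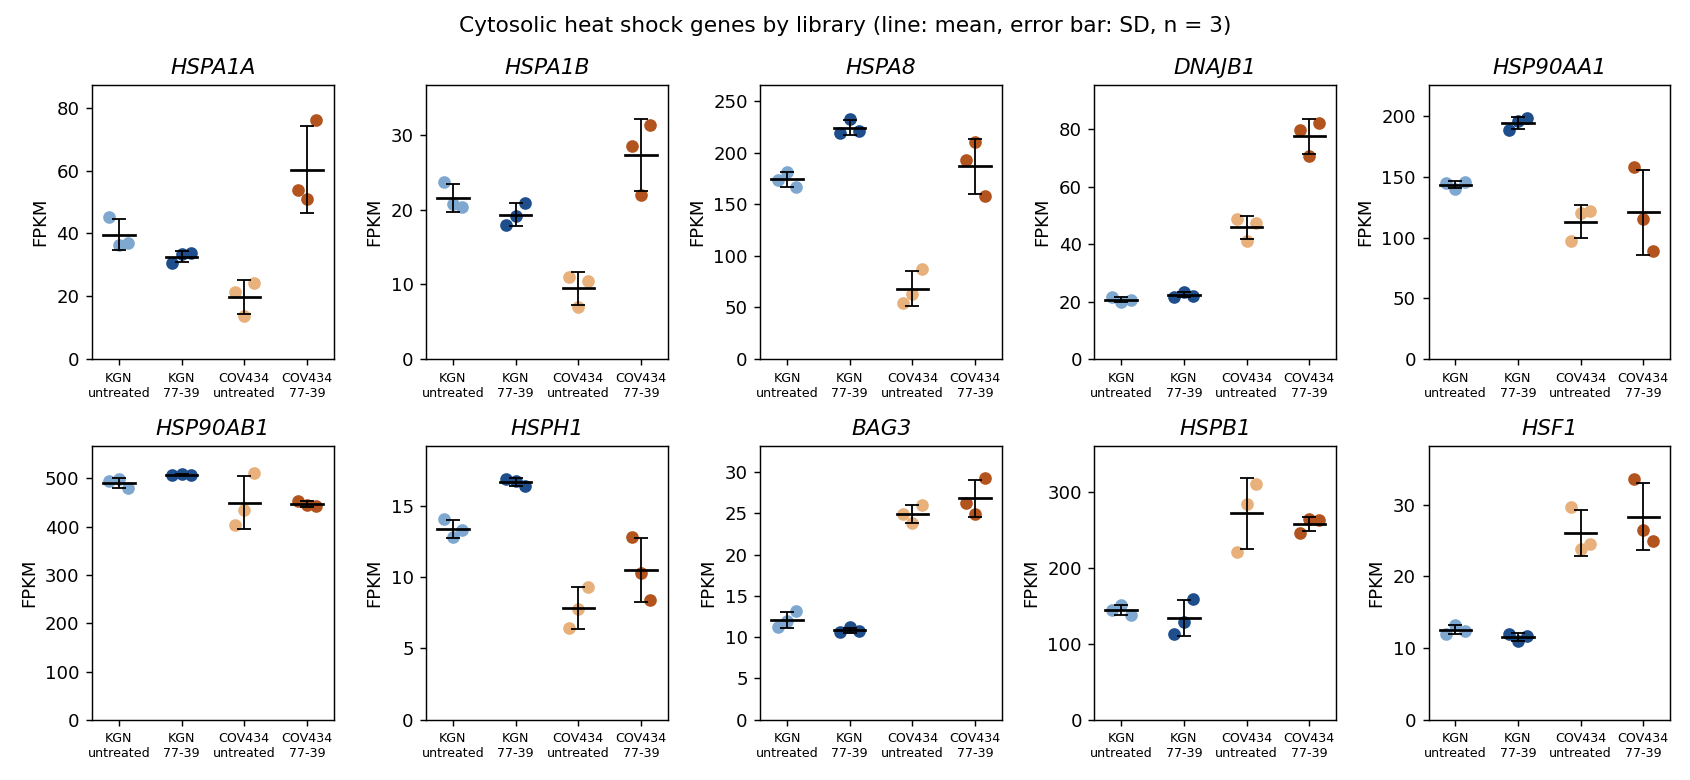
FPKM (y axis, from 0) of the 10 genes in each of the 12 libraries, with 1 panel per gene and the 4 groups on the x axis. Points are libraries, the horizontal line is the mean and the error bar the SD of 3 libraries. HSPA1A, HSPA1B, HSPA8 and DNAJB1 are higher in all 3 treated than in all 3 untreated libraries labelled COV434. DNAJB1, HSPB1, BAG3 and HSF1 are higher in every COV434 than in every KGN library, and HSPH1 is lower there by a small margin.

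In all, 3 of the 10 genes rose and 0 fell with 77-39 in the libraries labelled KGN at an adjusted p under 0.05 in limma, where 34% of the 12671 genes tested were called in either direction and 17.6% were higher. Before adjustment, 3 were higher and 1 lower at a p under 0.05, against 45.3% of all genes in either direction. The share of 3 in 10 is near that of the genes as a whole. When 1 model of all 12 libraries, with a shared spread, was used, 0 of the 10 were called in KGN, where 7.73% of all genes were. In COV434, 0 of the 10 had an adjusted p under 0.05, as did 5 of 12060 genes, or 0.0415%. Before adjustment 4 of the 10 had a p under 0.05, all higher, where 8% of all genes did. With voom on the recovered reads 3 of the 10 were called in COV434, against 0.207% of all genes, and 4 with 1 model of all 12 libraries, against 3.66%. For each of the 10, the SE in the 1 model lay between those of the lines fitted alone, which were larger in COV434. For HSPA8 it was 0.16, against 0.05 in KGN and 0.21 in COV434. In COV434, treated and untreated libraries of the same number deviated together from their group means, at r = 0.400, 0.474 and 0.166 across genes. The last was hardly above the 0.154 of untreated library 3 with treated library 2. The labels do not say what the number marks, so this pairing was taken from the data. When libraries were blocked by number, 4 of the 10 were called in COV434, all higher, against 0.721% of all genes called and 0.323% called higher. The counts for COV434 hold HSPA1A and HSPA1B as separate genes, though their near-identical sequences make these rows not independent. The treated libraries lay wholly above the untreated in 4 of the 10 genes in COV434, against 6.23% of all genes, and in 5 of the 10 in KGN, against 26.3%. They lay wholly below in 3 of the 10 in KGN, against 23.4%, and in none in COV434, against 8.16%. In bulk RNA, fewer cells of a type and less RNA per cell cannot be told apart.

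HSPA1A (ENSG00000204389, chromosome 6, 31815464 to 31817946 of GRCh38) is the inducible HSP70 gene that showed the largest fold change of the 10 in COV434. Its FPKM in untreated COV434 libraries 1, 2 and 3 was 21.5, 13.8 and 24.1, and in the treated libraries 53.7, 51.0 and 76.2. The lowest treated library was more than the highest untreated one, and the ratio of libraries with the same number was 2.50, 3.70 and 3.16. The log2 fold change, on the scale of log2(FPKM + 1), was 1.57 with an SE of 0.24, an adjusted p of 0.0769 and an unadjusted p of 0.000177. With libraries blocked by number the adjusted p was 0.0225. In KGN the libraries stood at 45.2, 36.4 and 36.9 without and 30.6, 33.6 and 33.7 with 77-39, a log2 change of -0.26 (SE 0.09, adjusted p = 0.0599), where all treated libraries were lower but the test after adjustment was not passed. It was passed there by voom on the recovered reads, with an adjusted p of 0.0185.

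HSPA1B (ENSG00000204388, chromosome 6, 31827735 to 31830255) lies beside HSPA1A and encodes nearly the same protein. The coding sequences have 1926 bases each and differ at 4, and 69.9% of the stretches of 100 bases in the HSPA1A transcript also occur in that of HSPA1B, so reads may be split between the rows and each row is uncertain. HSPA1B stood at 10.96, 6.98 and 10.5 FPKM in untreated and at 28.6, 22.0 and 31.4 FPKM in treated COV434 libraries, and its log2 fold change was 1.45 with an SE of 0.21, an adjusted p of 0.0769, and 0.0220 with the block. In KGN its log2 difference was -0.15 (SE 0.08, adjusted p = 0.179) between 20.4 and 23.8 FPKM untreated and 17.9 and 20.9 FPKM treated, and the groups overlapped. Without untreated KGN library 1 the log2 difference was -0.085 for HSPA1B and -0.17 for HSPA1A, and without treated KGN library 1 it was -0.10 for HSPA1B. Summed, the pair had a log2 difference of 1.56 in COV434 (adjusted p = 0.0793) and of -0.23 in KGN (adjusted p = 0.0821). The row of AL671762.1, which shares 920 bases of exon with HSPA1B on the same strand, held no reads in any library.

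HSPA8 (ENSG00000109971, chromosome 11, 123057489 to 123063230) encodes the constitutive HSP70 and shares no stretch of 100 bases with the inducible pair. In COV434 it had the largest difference of the 10 in mean FPKM. The untreated COV434 libraries stood at 54.4, 63.0 and 86.9 FPKM and the treated ones at 193, 210 and 158. All treated libraries were well above the untreated, and the ratios of the numbered pairs were 3.54, 3.33 and 1.81. The log2 fold change was 1.46 with an SE of 0.21, an adjusted p of 0.0769, and 0.0424 with the block. In KGN the gene stood at 174, 181 and 167 FPKM without and 219, 232 and 221 FPKM with 77-39, and rose by 0.36 on the log2 scale (SE 0.05, adjusted p = 0.00323), or 1.29 times in mean FPKM. Treated COV434 thereby overlapped untreated KGN in level, and untreated COV434 lay below every other group. Its share of the summed FPKM of the 10 genes averaged 16.2% without and 19.1% with treatment in KGN, and 6.50% and 15% in COV434. The 17 pseudogene rows named after HSPA8 together held at most 0.166% of its reads. SNORD14C and SNORD14D, small RNAs within the gene, share 88 and 87 of its exon bases.

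DNAJB1 (ENSG00000132002, chromosome 19, 14514770 to 14529770) encodes a J-domain partner of the inducible HSP70. The untreated COV434 libraries held 48.9, 41.3 and 47.4 FPKM and the treated 79.9, 70.7 and 82.1, and the 3 ratios of numbered pairs, at 1.63, 1.71 and 1.73, were the closest of the 4 genes. The log2 fold change was 0.75 with an SE of 0.15 and an adjusted p of 0.147, and 0.0393 with the block. In KGN, 21.5, 19.8 and 20.6 FPKM stood against 21.7, 23.4 and 22.0 FPKM, a log2 difference of 0.11 with a 95% interval of -0.01 to 0.23 and an adjusted p of 0.125. Exons of TECR and MIR639 on the opposite strand overlap 211 and 98 of its bases, and the kit named in the labels does not mark strand.

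**Figure D2:**
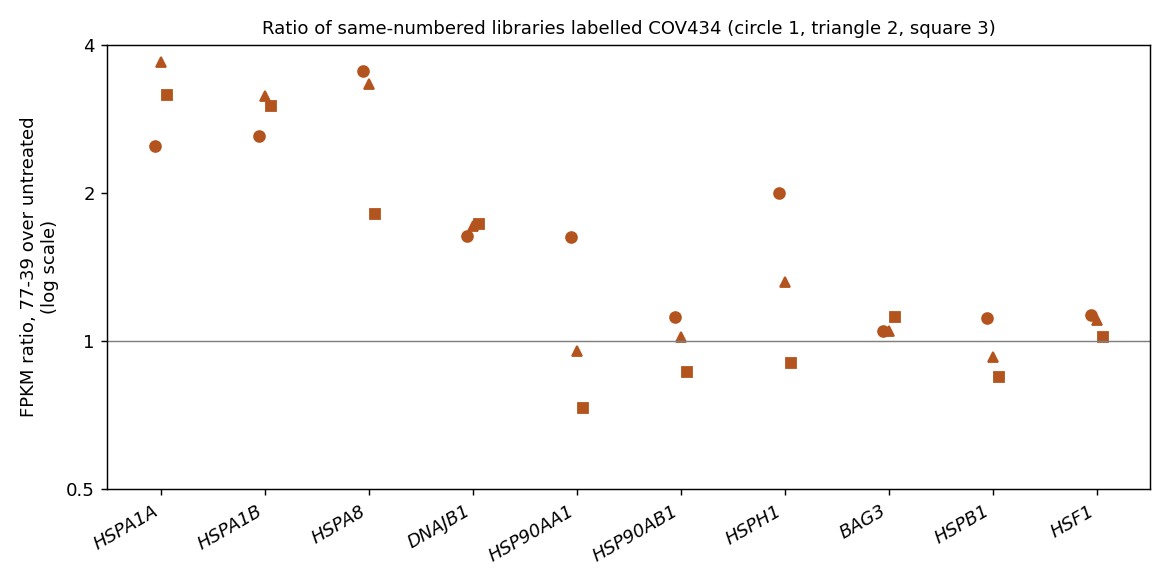
Ratio of FPKM, treated over untreated library of the same number, for the libraries labelled COV434 (y axis, log scale) for the 10 genes (x axis). Circles, triangles and squares are libraries 1, 2 and 3. HSPA1A, HSPA1B, HSPA8 and DNAJB1 lie above 1 in all 3 pairs, from 1.63 to 3.70, as do BAG3 and HSF1, from 1.02 to 1.13, while the pairs of HSP90AA1, HSP90AB1, HSPH1 and HSPB1 lie on both sides of 1.

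The nucleotide exchange factors are HSPH1 and BAG3. HSPH1 (ENSG00000120694, chromosome 13, 31134974 to 31162388), also called HSP105 or HSP110, held 14.1, 12.8 and 13.3 FPKM in untreated and 16.9, 16.7 and 16.4 FPKM in treated KGN libraries. These groups did not overlap, and the gene rose by 0.30 on the log2 scale (SE 0.05, adjusted p = 0.00421). In COV434 its libraries held 6.42, 7.80 and 9.30 FPKM and then 12.8, 10.3 and 8.39 FPKM, which overlapped, with a log2 difference of 0.38 (95% interval -0.07 to 0.82, adjusted p = 0.723). BAG3 (ENSG00000151929, chromosome 10, 119651370 to 119677819), which also links HSP70 to autophagy, did not pass the test in either line. It held 11.2, 11.97 and 13.2 FPKM in untreated and 10.6, 11.2 and 10.7 FPKM in treated KGN libraries, a log2 difference of -0.15 (adjusted p = 0.112). Without untreated KGN library 1 the adjusted p was 0.0431 and the difference -0.20, and without untreated KGN library 3 they were 0.289 and -0.091. In COV434 it held 24.9, 23.8 and 26.0 FPKM and 26.2, 24.97 and 29.2 FPKM, which overlapped, with a log2 difference of 0.10 and a 95% interval of -0.22 to 0.42.

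Of the HSP90 genes, HSP90AA1 (ENSG00000080824, chromosome 14, 102080738 to 102139699), the inducible form, rose in KGN. It held 145, 140 and 146 FPKM without and 189, 197 and 199 FPKM with 77-39, groups that lay well apart, with a log2 fold change of 0.43 (SE 0.05, adjusted p = 0.00112), the largest of the 10 in KGN. In COV434, 97.3, 121 and 122 FPKM stood against 158, 115 and 89.1 FPKM. The treated libraries there lay on both sides of the untreated, the log2 difference was 0.06 (95% interval -0.47 to 0.59) and it was -0.15 without treated library 1, in which mitochondrial reads were highest, and -0.04 without untreated library 1. HSP90AB1 (ENSG00000096384, chromosome 6, 44246166 to 44253888), the constitutive form, was the highest of the 10 genes in all 12 libraries, with 35.2% to 45.9% of their summed FPKM. It held 479 to 499 FPKM in untreated and 506 to 509 FPKM in treated KGN, a log2 difference of 0.05 (95% interval -0.08 to 0.17, adjusted p = 0.504), and 404 to 511 and 443 to 454 FPKM in COV434, a log2 difference of 0.00 (95% interval -0.40 to 0.39). The sign of these differences changed with the scaling, in KGN under quantile normalization and in COV434 under median-ratio scaling and voom. The ratio of HSPA8 to HSP90AB1 within a library was 0.348 to 0.363 in untreated and 0.432 to 0.457 in treated KGN, and 0.135 to 0.170 and 0.356 to 0.472 in COV434. Pseudogene rows named after HSP90AA1 and HSP90AB1 held at most 0.509% and 0.313% of their reads.

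HSPB1 (ENSG00000106211, chromosome 7, 76302544 to 76304295) encodes HSP27, a small heat shock protein that holds unfolded proteins without ATP. It held 145, 151 and 138 FPKM in untreated and 113, 129 and 160 FPKM in treated KGN libraries, with a log2 difference of -0.13 (adjusted p = 0.453). Treated library 3 was above all the untreated and the other 2 were below, and without library 3 the log2 difference was -0.26 with an adjusted p of 0.0462, whereas without treated library 1 it was -0.012 with an adjusted p of 0.940. In COV434, 221, 284 and 311 FPKM stood against 247, 265 and 263 FPKM, a log2 difference of -0.06 (95% interval -0.48 to 0.36). HSF1 (ENSG00000185122, chromosome 8, 144291591 to 144314722) held 12.01, 13.2 and 12.4 FPKM without and 11.95, 10.9 and 11.7 FPKM with 77-39 in KGN, a log2 difference of -0.11 (adjusted p = 0.149). In COV434 it held 29.7, 23.8 and 24.4 FPKM and 33.6, 26.4 and 24.9 FPKM, which overlapped, with a log2 difference of 0.11 (95% interval -0.28 to 0.51). The activity of HSF1 is set largely by its trimer formation and modification, which RNA levels do not show. Exons of DGAT1 and AC233992.1 on the opposite strand overlap 139 and 133 bases of HSF1.

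The difference between the responses of the lines was then tested itself, as the interaction of line and treatment over all 12 libraries. It was called for 4 of the 10 genes, all with a lower log2 fold change in KGN than in COV434, where 3.6% of 13127 genes were called and 1.74% in that direction. HSPA1A and HSPA1B, among these 4, share most of their sequence, so their rows are not independent. The KGN response of HSPA1A was lower by 1.84 on the log2 scale (SE 0.28, adjusted p = 0.00786), that of HSPA1B by 1.60 (SE 0.24, adjusted p = 0.00567), that of HSPA8 by 1.09 (SE 0.23, adjusted p = 0.0259) and that of DNAJB1 by 0.63 (SE 0.13, adjusted p = 0.0267). The differences of HSPA1A and HSPA1B were called in every fit that left out 1 library, and their sum gave -1.79 (adjusted p = 0.00680). Those of HSPA8 and DNAJB1 lost their call without any 1 of the 6 KGN libraries, with adjusted p-values of 0.0656 to 0.0802 and 0.0709 to 0.0881. HSPA8 also lost it without untreated COV434 library 2 (adjusted p = 0.0516) or treated COV434 library 2 (adjusted p = 0.0659), with the replicate block (adjusted p = 0.0589) and with no filter (adjusted p = 0.0635), and DNAJB1 without untreated COV434 library 3 (adjusted p = 0.0573). Without 1 KGN library, the difference was -1.12 to -1.06 for HSPA8 and -0.66 to -0.61 for DNAJB1. Those fits called 67 to 104 of all genes with a higher response in KGN and 58 to 106 with a lower one, against 243 and 229. The replicate block of this test paired the libraries of both lines by number, although those of KGN did not deviate together. For HSP90AA1 the difference was 0.37 with a 95% interval of -0.17 to 0.92, and for HSPH1 -0.08 with an interval of -0.53 to 0.37, so that a rise in KGN alone was not shown for either. The other 4 genes had differences of -0.25 to 0.05.

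**Figure D3:**
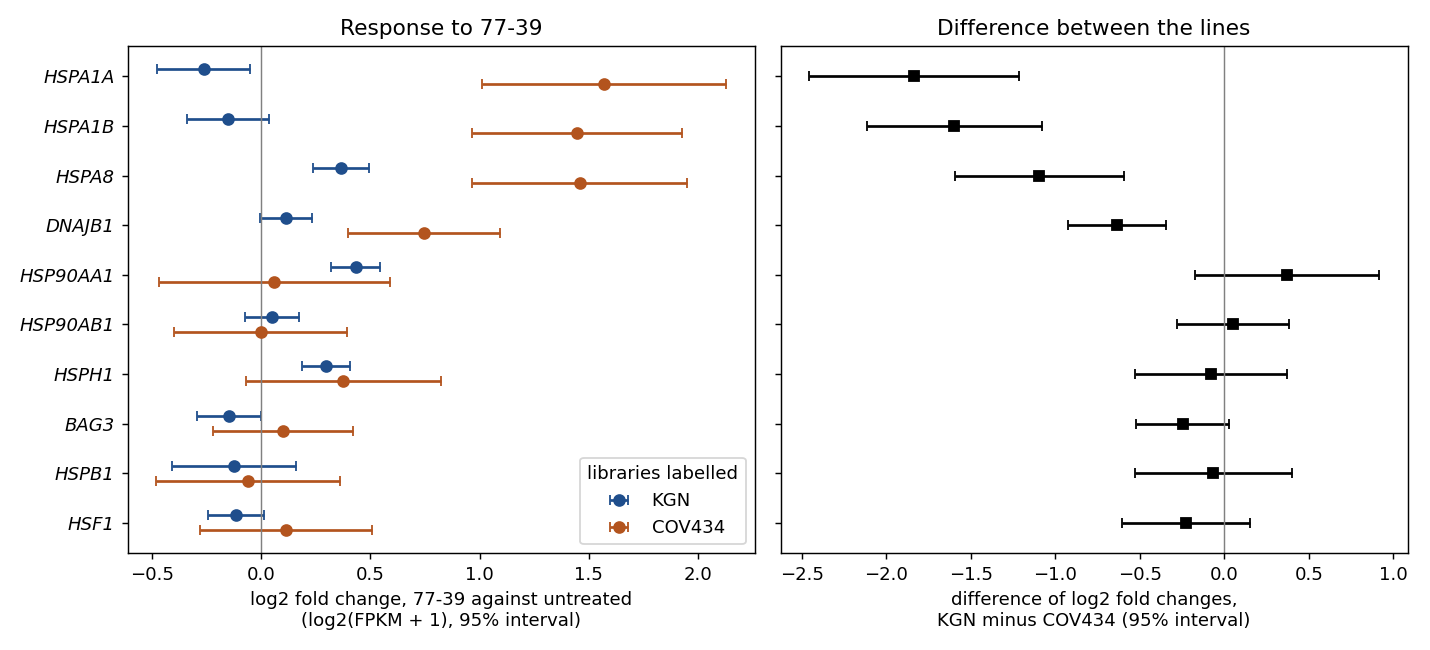
Left, log2 fold change with 77-39 on the log2(FPKM + 1) scale (x axis) of the 10 genes (y axis) in the libraries labelled KGN (blue) and COV434 (orange), with 95% intervals from limma, unadjusted. Right, the difference of the 2 fold changes, KGN minus COV434. The intervals of HSPA1A, HSPA1B, HSPA8 and DNAJB1 lie wholly below 0 on the right, from a difference of -1.84 to -0.63.

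Untreated, 8 of the 10 genes differed between the lines, where 70.2% of all genes did. In KGN 4 were higher and 4 lower than in COV434, against 33.3% and 36.9% of all genes. The library size behind the FPKM was 1.0731 to 1.1034 times the reads on genes in the KGN libraries. In the COV434 libraries it was 0.9107 to 0.9782 times those reads. Levels in FPKM therefore stand lower in KGN against COV434 than levels scaled to the reads on genes. Which size is the better one was not tested. HSPA8 was 2.55 times higher in mean FPKM in KGN than in COV434, with a log2 difference of 1.37 (adjusted p = 1.24e-05), HSPA1B 2.28 times (1.13, adjusted p = 8.01e-05), HSPA1A 2.00 times (0.99, adjusted p = 0.000915) and HSPH1 1.71 times (0.72, adjusted p = 0.000903). In COV434, DNAJB1 was 2.22 times higher (log2 difference of KGN minus COV434 -1.11), HSF1 2.07 times (-0.99), BAG3 2.06 times (-0.98) and HSPB1 1.88 times (-0.89). HSP90AA1 and HSP90AB1 differed by 0.35 (adjusted p = 0.0951) and 0.13 (adjusted p = 0.285). HSP90AA1, but not HSP90AB1, was called with median-ratio scaling (0.41, adjusted p = 0.0493) and with array weights by line (0.35, adjusted p = 0.0497). Both genes were called, higher in KGN, with quantile normalization (0.87 and 0.45) and with voom (0.56 and 0.34). These 2 settings moved the median difference of all genes by 0.11 and 0.20. Quantile normalization kept the sign and the call of the other 8 but moved them all toward higher values in KGN. It moved 4 away from 0, to 1.85 for HSPA8, 1.42 for HSPA1B, 1.36 for HSPA1A and 0.93 for HSPH1. The other 4 moved toward 0, to -0.67 for DNAJB1, -0.65 for HSF1, -0.65 for BAG3 and -0.43 for HSPB1. In the order of the 4 groups by mean FPKM, treated COV434 was highest for HSPA1A and HSPA1B, and untreated COV434 lowest. DNAJB1, BAG3, HSPB1 and HSF1 were higher in both COV434 groups than in either KGN group, whereas HSP90AA1, HSP90AB1 and HSPH1 were highest in treated KGN. Neighbouring groups overlapped in several genes, among them treated and untreated COV434 for HSP90AA1, HSP90AB1, HSPH1, BAG3, HSPB1 and HSF1. The 10 genes together summed to 1047 to 1086 FPKM in untreated and 1139 to 1201 FPKM in treated KGN, and to 919 to 1172 FPKM and 1205 to 1287 FPKM in COV434.

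The chaperone genes around these 10 were followed in 6 lists of 66 genes: HSP70 partners, HSP90 cochaperones, the cytosolic chaperonin TRiC with prefoldin, small heat shock proteins, heat shock factors and regulators, and other heat-induced genes. In KGN, 9 of the 54 tested rose and 12 fell, against 17.6% and 16.4% of all genes, with a median log2 fold change of -0.07 where all genes had 0.01. Of 16 HSP70 partners, 3 rose and 4 fell. BAG2, an inhibitor of the ubiquitin ligase CHIP, rose by 0.29 (adjusted p = 0.00443), ST13, which binds HSP70 to HSP90 complexes, by 0.22 (adjusted p = 0.0130) and the J-domain gene DNAJB4 by 0.32 (adjusted p = 0.0392). HSPA2, an HSP70 of the germ line, fell by 0.44 (adjusted p = 0.00856), HSPA1L, which adjoins the inducible pair, by 0.48 (adjusted p = 0.0192) and the exchange factor HSPBP1 by 0.22 (adjusted p = 0.0248). Of 11 HSP90 cochaperones, 1 rose and 4 fell. PPID, a cyclophilin, rose by 0.42 (adjusted p = 0.00875), while the immunophilins FKBP4 and FKBP5 fell by 0.26 (adjusted p = 0.00292) and 0.31 (adjusted p = 0.00490) and the phosphatase PPP5C by 0.28 (adjusted p = 0.00538).

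Of the 14 TRiC and prefoldin genes, 2 rose and 3 fell in KGN. The prefoldin subunits PFDN4 and VBP1 rose by 0.31 (adjusted p = 0.00923) and 0.23 (adjusted p = 0.0451), whereas the TRiC subunits CCT3, CCT7 and CCT2 fell by 0.25 (adjusted p = 0.00732), 0.20 (adjusted p = 0.0235) and 0.16 (adjusted p = 0.0475). Of 2 small heat shock proteins tested, CRYAB, the alpha-B crystallin, rose by 0.27 (adjusted p = 0.0265), from a mean of 869 to 1049 FPKM, while in COV434 it stood at 2.61 and 2.48 FPKM. None of 3 heat shock factors and regulators was called, and the smallest p was that of HSBP1, a binder of HSF1, with a difference of 0.16 (adjusted p = 0.133). Of 8 other heat-induced genes, 2 rose and 1 fell. HSPA5, the HSP70 of the endoplasmic reticulum, rose by 0.57 (adjusted p = 0.000596), from 59.8 ± 2.96 to 89.2 ± 1.89 FPKM (SD, n = 3), SERPINH1, a collagen chaperone, rose by 0.21 (adjusted p = 0.0229) and DEDD2 fell by 0.20 (adjusted p = 0.0219). Of these 19 named genes called in KGN, 9 were called in every fit that left out 1 library and 10 lost their call in at least 1. The 9 were BAG2, HSPA2, PPID, FKBP4, FKBP5, PPP5C, PFDN4, CCT3 and HSPA5.

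In COV434, 0 of 55 tested genes of the lists were called with an adjusted p under 0.05, nor with voom, where 0.0415% and 0.207% of all genes were. At an unadjusted p under 0.05, 3 were higher and 1 lower, a share near the 8% of all genes. Their median log2 fold change was 0.04 where all genes had -0.02. The gene with the smallest p was DNAJB2 among HSP70 partners (-0.39, adjusted p = 0.640) and STIP1 among HSP90 cochaperones (0.28, adjusted p = 0.890). It was PFDN4 in the TRiC and prefoldin list (0.80, adjusted p = 0.134, and 0.0475 with the block) and HSPB7, a small heat shock protein of muscle, in its list (-0.999, adjusted p = 0.0769, and 0.0393 with the block). It was HSBP1 (0.11, adjusted p = 0.974) among factors and regulators and SERPINH1 (0.49, adjusted p = 0.434) among other heat-induced genes. HSPB7 held 7.36, 7.34 and 8.59 FPKM in untreated and 2.84, 3.38 and 3.99 FPKM in treated COV434 libraries and no read in KGN. With the block 2 list genes were called in COV434, PFDN4 and HSPB7, where 0.721% of all genes were. Of the 66 list genes, 9 were tested in no comparison, of which HSPA14 had 2 rows and HSPA6, the strictly stress-inducible HSP70, fell below a mean of 1 FPKM. Another 3 (DNAJA4, HSPB7 and HSPB8) were too low to be tested in KGN and 2 (HSPA2 and HSPA1L) in COV434.

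**Figure D4:**
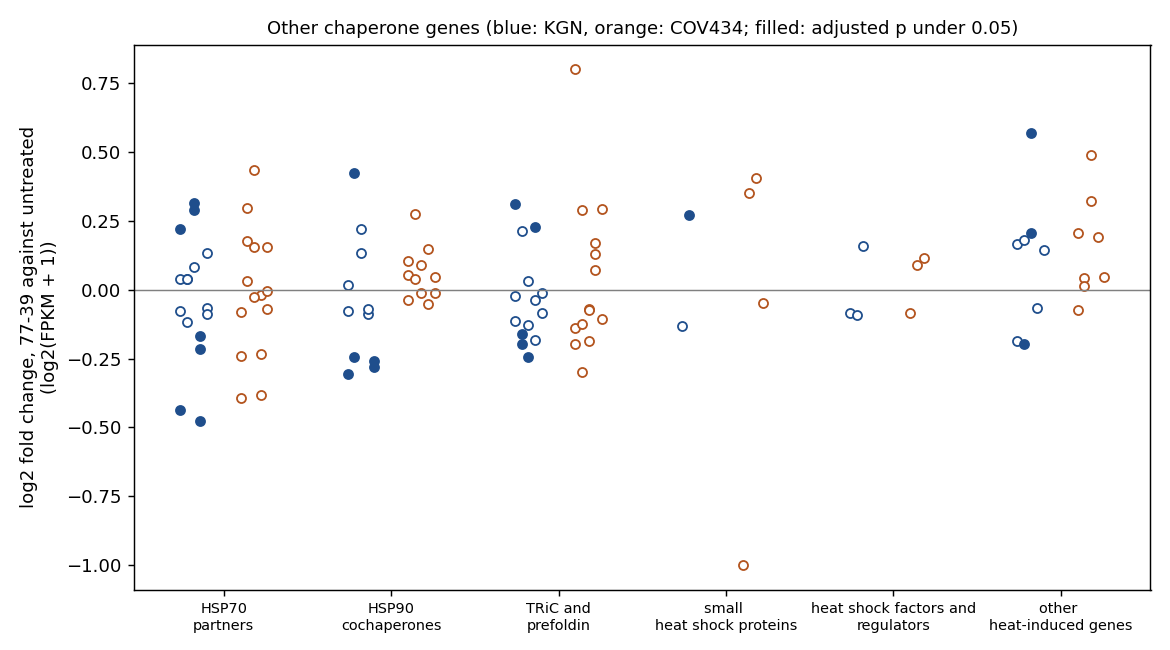
Log2 fold change with 77-39 on the log2(FPKM + 1) scale (y axis) of each tested gene in 6 lists of other chaperone genes (x axis), in the libraries labelled KGN (blue) and COV434 (orange). Each point is a gene, and filled points have an adjusted p under 0.05. In KGN 9 genes are filled above 0 and 12 below, in COV434 none is filled.

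The genes most like DNAJB1 and HSPA8 were named from the Pearson r of log2(FPKM + 1), centred on each line's mean, over 12 libraries, among the 10225 genes whose mean reached 1 FPKM in both lines. The 12 points share the treatment contrast and the libraries, and r is given as a description. For DNAJB1 the 5 highest were USP18 (r = 0.974), TRIM16L (0.971), FDXR (0.965), BTG2 (0.959) and AEN (0.959). In mean FPKM, USP18 went from 13.05 to 24.8 in COV434 and from 8.03 to 8.12 in KGN, and TRIM16L from 10.8 to 24.1 and from 3.12 to 3.48. For HSPA8 the 5 highest were CDKN1A (r = 0.953), ELOVL6 (0.950), PRSS16 (0.949), SCAMP5 (0.938) and ERG28 (0.920). CDKN1A, the cyclin-dependent kinase inhibitor p21, went from 56.8 to 90.7 FPKM in COV434 and from 72.4 to 74.9 FPKM in KGN. Among the 10 genes themselves, r of HSPA1A with HSPA8 was 0.89 within COV434 and -0.74 within KGN, over 6 libraries each.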

How the data were processed

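The authors extracted RNA with TRIzol and deposited FPKM for 12 libraries, with no counts. The tool and builds named in the submitters' processing notes are HISAT2 2.0.5 and the mouse builds mm10 and mm8, and the labels' extraction text speaks of retinas, whereas 58724 of the 58735 gene coordinates equal those of GENCODE 29 on human GRCh38. The kit was an Illumina TruSeq RNA kit. FPKM times gene length fell on whole reads in 100% of values above 0 (tolerance 0.05).

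Each line was fitted alone with limma 3.58.1 in R 4.3.3 (lmFit, eBayes with trend, two-sided, Benjamini-Hochberg) on log2(FPKM + 1), a scale that understates the change of low genes, for the genes whose mean reached 1 FPKM. The interaction and the untreated contrast used all 12 libraries. Same-numbered libraries correlated across genes at r = 0.400, 0.474 and 0.166 in COV434 and at -0.0164, -0.0180 and -0.0190 in KGN. Differently numbered COV434 libraries correlated at -0.469 to 0.154. The numbers were therefore read as pairs in COV434 only, but the replicate block, where it was tried for KGN and for the interaction, also paired the KGN libraries by number. The labels do not say what the number marks. Scripts were tested on simulated data. Python 3.11.15 with numpy 2.4.6, pandas 2.3.3 and matplotlib 3.10.9 was used.

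The 10 genes and the lists were chosen with earlier results of these data known. Named were all 10 and, per list and line, up to 3 called genes in each direction with the smallest p (or the gene with the smallest p where none was called), and the 5 genes most like DNAJB1 and HSPA8. The alternatives tried were a filter at 0.1 FPKM or none, a pseudocount of 0.1, median-ratio scaling, quantile normalization, voom, 1 model of all 12 libraries, the replicate block, HSPA1A and HSPA1B summed, and leaving out each library. Array weights by line were added after seeing the data.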

Additional observations from a re-analysis of the deposited data

Results flagged for a closer look

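The responses of 4 of the 10 heat shock genes differed between the lines in the interaction of line and treatment in limma, where 3.6% of all genes did and 1.74% in the same direction. The difference, KGN minus COV434 on the log2 scale, was -1.84 for HSPA1A, -1.60 for HSPA1B, -1.09 for HSPA8 and -0.63 for DNAJB1. The rows of HSPA1A and HSPA1B, which share most of their sequence, are not independent. When 1 library was left out, HSPA8 was called in 4 of 12 fits and DNAJB1 in 5 of 12, and HSPA8 was not called with the replicate block (adjusted p = 0.0589). Over the 12 fits, 67 to 548 of all genes were called with a higher response in KGN and 58 to 427 with a lower one. In the full data these were 243 and 229. Another 2 genes, from the other chaperone lists, also differed, 2 of 57 tested, a share near that of all genes. The difference for HSPA2 was -0.68 (adjusted p = 0.0186), but the gene passed the filter through KGN only, and in COV434 it stood at 0.19 to 0.53 FPKM, where log2(FPKM + 1) leaves little room for a change. It was 1.00 for HSPB7 (adjusted p = 0.00514), which had no read in the KGN libraries, so that its difference is the COV434 change alone. The call of HSPA2 was lost with array weights by line (adjusted p = 0.0836) and without untreated KGN library 2 (adjusted p = 0.0532), treated KGN library 1 (0.0608) or treated KGN library 3 (0.0511), and that of HSPB7 was lost with voom (adjusted p = 0.538).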

How the results depend on the processing

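Values are numbers of genes called at an adjusted p under 0.05 in limma unless named otherwise. Of the 10 heat shock genes, 3 were called in KGN, where 34% of all genes were, and 0 with 1 model of all 12 libraries, where 7.73% of all genes were. In COV434, 0 were called, but 3 with voom, 4 with the replicate block and 4 with 1 model of all 12 libraries, where 0.207%, 0.721% and 3.66% of all genes were. The 1 model shares its spread between lines that differed in it, with larger SEs of the 10 genes in COV434 than in KGN. Leaving out 1 library gave 3 to 4 in KGN, 0 to 0 in COV434, 2 to 4 for the difference between the lines (4 in the full data) and 8 to 8 for the untreated lines. Of all genes, those fits called 1380 to 2058 higher and 1371 to 2070 lower in KGN, and 0 to 2 and 1 to 5 in COV434. They called 67 to 548 and 58 to 427 for the difference between the lines, and 3932 to 4500 and 4526 to 4914 for the untreated lines. In the full data 3.6% of all genes were called for the difference between the lines and 70.2% for the untreated lines. Of the other chaperone genes in KGN, 21 of 54 were called, a share near the 34% of all genes. With no filter 13 were called, where 1540 genes were higher and 1409 lower of 32824. With 1 model of all 12 libraries 2 were called, where 7.73% of all genes were. When 1 library was left out 12 to 24 were called, with 13, 12 and 12 without untreated library 2, untreated library 3 and treated library 2. Of all genes, 1614, 1565 and 1380 were higher and 1435, 1439 and 1371 lower in those fits. In COV434, 0 were called, 2 with the replicate block, 3 with 1 model of all 12 libraries, and 0 to 0 when 1 library was left out. The block called 0.721% of all genes there and the 1 model 3.66%. For all genes in KGN, whose numbers do not pair the libraries, the block gave 1662 higher and 1615 lower calls against 2230 and 2077. In COV434 it gave 39 and 48 against 1 and 4. Among the 10 genes the block changed no call but those of HSPA1A, HSPA1B, HSPA8 and DNAJB1 in COV434 and that of HSPA8 in the difference between the lines. The cause of these changes was not tested. Log2 differences that changed sign, none of them called, were those of HSP90AB1 in KGN with quantile normalization (-0.047), HSP90AB1 in COV434 with median-ratio scaling (0.015) and voom (0.0054), and some with 1 library left out, which ranged from -0.15 to 0.26 for HSP90AA1, -0.076 to 0.092 for HSP90AB1, -0.20 to 0.042 for HSPB1, -0.014 to 0.21 for HSF1 and -0.059 to 0.29 for HSBP1 in COV434, and for the difference between the lines from -0.043 to 0.13 for HSP90AB1, -0.22 to 0.061 for HSPH1 and -0.20 to 0.078 for HSPB1. Of 1074 values of single genes under an alternative, 936 kept direction and side of the threshold, 97 lost a call, 25 gained one and 16 changed sign.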

Other observations

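HSPA6, the HSP70 gene that is nearly silent without stress, was named after its values were seen. Its near copy HSPA7 may share its reads. It had 7, 7 and 6 reads in untreated and 16, 17 and 16 reads in treated KGN libraries, and 4, 6 and 0 reads in untreated and 21, 19 and 33 reads in treated COV434 libraries. All treated libraries held more than all untreated ones in both lines. With the filter at 0.1 FPKM, the log2 difference was 0.27 in KGN (adjusted p = 0.0406) and 0.58 in COV434 (adjusted p = 0.311) in limma, and the interaction was -0.30 (adjusted p = 0.247).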
